A study of Homo sapiens with 6 samples.

Results

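Box C/D small nucleolar RNAs that guide RNA modification were examined among the RNA sites crosslinked to 2 HSP70 chaperones. The set was defined as the RefSeq genes of biotype snoRNA whose symbols start with SNORD, without the U3 genes (SNORD3A and its copies), U8 (SNORD118) and U13 (SNORD13 and its lettered relatives), which act in processing of the ribosomal RNA precursor. Of 332 such genes annotated on GRCh38, 56 overlapped a deposited peak by at least 1 bp in any of 4 peak lists, and these 56 are the members described here. Peaks chose the members, so the presence of a peak is a description and not a finding. Other readings of the symbols gave similar numbers. Leaving out SNORD30 to SNORD39 together with U3 gave 46 members of 315 genes, and keeping the lettered U13 relatives gave 57 of 342, the added gene being SNORD13J with a peak in HSPA8 replicate 2.

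The study used FLASH-seq, in which RNA is crosslinked to a tagged protein by ultraviolet light, recovered with that protein and sequenced. The cells were HEK293 Flp-In T-Rex, an established human embryonic kidney line that carries a tetracycline-inducible transgene. The baits were HSPA1A, a stress-inducible HSP70, and HSPA8, its constitutive relative. All bait proteins carried the 3xFLAG-HBH tag and were induced with 1 µg/ml tetracycline, so the tagged protein was made in addition to the cells' own. There were 2 biological replicates per bait, with a separate peak list for each. GFP, the control bait, also had 2 replicates, which were not analysed here. Nothing below therefore has a background from a control bait, and binding cannot be told apart from the abundance of an RNA.

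Box C/D snoRNAs are short nucleolar RNAs named after a pair of conserved sequence elements, box C near the 5′ end and box D near the 3′ end. With fibrillarin, NOP56, NOP58 and SNU13 they form a particle that places a methyl group on the ribose of a target nucleotide, mostly in ribosomal RNA, chosen by base pairing next to box D or the internal box D′. In human cells most of them lie in introns of other genes. They are trimmed out of the spliced intron, and many hosts are genes of ribosomal proteins and translation factors or non-coding RNAs such as GAS5 and SNHG1.

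SNORD58B, a 28S rRNA guide in RPL17, is shown as the member whose whole sequence lies in the reference sequences used here. It lies on the minus strand at chr18:49491664-49491729 (GRCh38.p14, sequence from RefSeq). Bases covered by the peak of each list are in capitals, and the other bases are in lower case.
HSPA1A replicate 2: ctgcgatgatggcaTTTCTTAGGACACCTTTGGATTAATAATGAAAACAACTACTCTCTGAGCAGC
HSPA8 replicate 2: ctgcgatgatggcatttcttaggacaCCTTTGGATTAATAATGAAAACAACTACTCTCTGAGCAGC
Both peaks ran to the last base, number 66, and they began at base 15 and at base 27. The letters TGATG, the core of box C, were found once, at bases 7 to 11, outside both peaks. The letters CTGA of box D were found once, at bases 58 to 61, inside both peaks. Both strands were searched, and the reverse strand held neither. Among the first 66 bases of 35116 RefSeq promoter windows, 8.71% held TGATG and 44.7% held CTGA on either strand, so a match to CTGA is common in windows of this length. The motif TGATG was chosen after the sequence was seen.

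The 4 lists held 2744 and 2059 peaks for HSPA1A and 3131 and 2040 for HSPA8. Read depth is unknown, and the authors' whole-number score per peak has no stated meaning, so it is used here only within a list. The HSPA8 lists, unlike those of HSPA1A, also cover unplaced scaffolds, on which the members do not lie. The reason is not stated, so a difference between baits cannot be told apart from a difference in how the lists were made. With HSPA1A, 33 members carried a peak in the list of replicate 1 and 12 in that of replicate 2. With HSPA8, 11 did so in the list of replicate 1 and 34 in that of replicate 2. The high and the low lists were thus one of each bait, and the groups overlapped. As a share of the 332 annotated genes these were 9.94% (95% Wilson interval 7.17 to 13.6), 3.61% (2.08 to 6.21), 3.31% (1.86 to 5.83) and 10.2% (7.42 to 13.97). Over all 59716 genes of the table the shares with a peak were 3.04%, 2.00%, 3.05% and 1.28% in the same order. HSPA8 replicate 2 had a peak on the fewest genes overall and on the most members. HSPA8 replicate 1 had the most peaks, and its share of annotated genes of the set, 3.31%, was close to the 3.05% of all genes.

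HSPA1A averaged 22.5 ± 14.8 genes (SD, n = 2) and HSPA8 22.5 ± 16.3 (SD, n = 2), a difference of 0 (two-sided exact permutation test, p = 1). With 2 lists per bait this test cannot give a p below 0.333. The labels call the replicates biological and do not say whether they are separate cultures grown on different days, so the p-values measure the spread between these lists alone. Leaving out any 1 list moved the difference to between -11.5 and 11.5 genes. Peaks on the set made up 1.20% (Wilson interval 0.858 to 1.68) and 0.583% (0.334 to 1.02) of all peaks with HSPA1A, and 0.351% (0.196 to 0.628) and 1.67% (1.20 to 2.32) with HSPA8. These shares averaged 0.893% ± 0.438 (SD, n = 2) with HSPA1A and 1.01% ± 0.930 (SD, n = 2) with HSPA8, and the difference of -0.116 percentage points was smaller than the spread between replicates (two-sided exact permutation test, p = 1). It turned to 0.541 without HSPA8 replicate 2 and to 0.194 without HSPA1A replicate 2. Peaks on scaffolds enter the totals of the HSPA8 lists only. Counting peaks on the chromosomes of all 4 lists alone left 2778 and 1423 peaks with HSPA8. The HSPA8 shares were then 0.396% and 2.39%, and those of HSPA1A were unchanged. The difference between baits kept its sign and was larger, at -0.4999 percentage points. After Benjamini-Hochberg adjustment over the 5 comparisons between baits in this section, every p was 1.

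**Figure D1:**
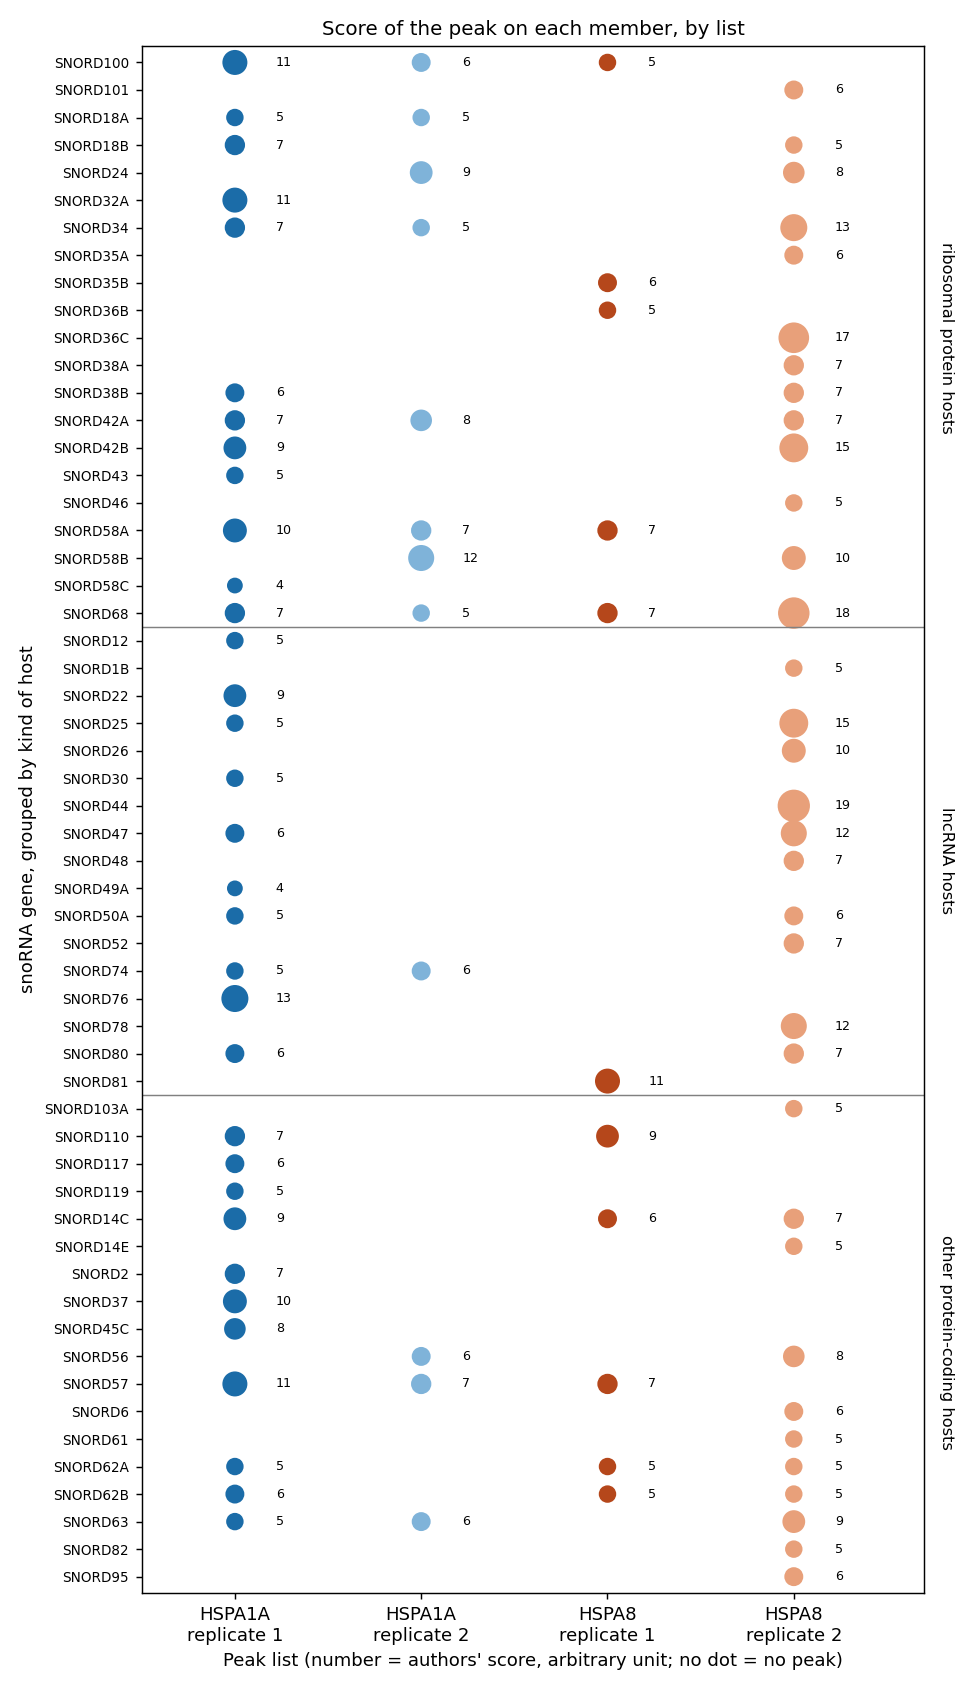
Authors' score (arbitrary unit, printed beside each dot and shown by its area) of the peak on each of the 56 members, in rows grouped by kind of host gene and in columns by peak list; no dot means no peak. SNORD68 alone has a dot in all 4 columns, and the columns of HSPA1A replicate 1 and HSPA8 replicate 2 hold 33 and 34 dots against 12 and 11 in the others.

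The members were mostly seen in few lists. Of the 56, 33 had a peak in 1 list, 13 in 2, 9 in 3 and 1 in all 4. That 1 gene is 0.301% of the 332 annotated genes of the set, and 0.872% of all genes had a peak in all 4 lists. Both HSPA1A replicates had a peak on 9 of the 332 genes of the set, and on 877 of all 59716 genes (1.47%). Both HSPA8 replicates had a peak on 4 of the 332, and on 587 of all genes (0.983%). Shared members were 75.0% of the members of HSPA1A replicate 2 but 27.3% of those of replicate 1. Over all genes, the 877 shared stood beside 1193 genes with a peak in replicate 2 and 1813 in replicate 1. For HSPA8 the shared members were 36.4% of the members of replicate 1 and 11.8% of those of replicate 2. Over all genes, the 587 shared stood beside 1823 in replicate 1 and 767 in replicate 2. Members of HSPA8 replicate 2 were thus shared less often than its genes as a whole, which was not tested. HSPA1A replicate 1 and HSPA8 replicate 2, the lists with the most members, shared 14, which is 42.4% of the former and 41.2% of the latter. These 14 are 4.22% of the annotated genes of the set, and 1.11% of all genes had a peak in both of these lists. That is 662 genes, beside 1813 with a peak in the former and 767 in the latter. The other pairs across baits shared 8 (both lists numbered 1), 4 (HSPA1A replicate 2 and HSPA8 replicate 1) and 7 (both lists numbered 2), or 2.41%, 1.20% and 2.11% of the set, against 1.68%, 1.29% and 1.09% of all genes. Members found in any list of each bait numbered 21, or 6.33% of the annotated genes of the set, against 2.02% of all genes. Another 15 (4.52%) were in HSPA1A lists alone and 20 (6.02%) in HSPA8 lists alone, against 1.55% and 1.34% of all genes. Of these 35 members, 33 rested on a single list, so they do not separate the baits.

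The member in all 4 lists was SNORD68 (GeneID 606500), which lies within RPL13 on chromosome 16 from 89561430 to 89561501. Its peaks scored 7 and 5 with HSPA1A, and 7 and 18 with HSPA8. In each list the score lay below the median of all peaks of that list, which was 10 and 13 with HSPA1A and 10 and 22 with HSPA8. The peaks covered bases 1 to 67 of its 72 in both lists numbered 1, bases 15 to 48 in HSPA1A replicate 2 and bases 1 to 48 in HSPA8 replicate 2. Its mean score rank within a list was 1593, where rank 1 is the highest score, so the most widely seen member was not among the high-scoring peaks of the whole lists.

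SNORD74 and SNORD18A were the only members with a peak in both HSPA1A replicates and in neither HSPA8 list. SNORD74, a 28S rRNA guide in GAS5, had scores of 5 and 6, and SNORD18A, a 28S rRNA guide in RPL4, had 5 in each list. Scores on members ran from 4 to 13 in HSPA1A replicate 1 and from 5 to 12 in replicate 2, with a median of 6 in each. Whether these RNAs differ between the baits was not tested. No member met the reverse condition for HSPA8. SNORD68, SNORD74, SNORD18A, SNORD34 and the SNORD14 genes were named by rule, and every other member named here was chosen after its values were seen.

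Members seen in 3 lists came from several kinds of host. SNORD63 guides methylation of 28S rRNA and lies in HSPA9, the gene of the mitochondrial HSP70, on chromosome 5 from 138561043 to 138561110. It had scores of 5 and 6 with HSPA1A and of 9 in HSPA8 replicate 2. All 3 of its peaks ended at base 68, the last base of the gene, and they began at bases 13, 29 and 26. SNORD34, a 28S rRNA guide in RPL13A, had scores of 7 and 5 with HSPA1A and 13 in HSPA8 replicate 2. SNORD34 peaks also all ended at the last base, number 66, starting before the gene in HSPA1A replicate 1 and at bases 28 and 27 in both lists numbered 2. SNORD42A, an 18S rRNA guide in RPL23A, had 7 and 8 with HSPA1A and 7 in HSPA8 replicate 2. In each of these 3 members the list without a peak was HSPA8 replicate 1, which held the fewest members.

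SNORD100, an 18S rRNA guide in RPS12, had scores of 11 and 6 with HSPA1A and 5 in HSPA8 replicate 1. SNORD58A, a 28S rRNA guide in RPL17, had 10 and 7 with HSPA1A and 7 in HSPA8 replicate 1. SNORD57, an 18S rRNA guide in NOP56, had 11 and 7 with HSPA1A and 7 in HSPA8 replicate 1. These 3 lacked a peak in HSPA8 replicate 2, the list with the most members. SNORD62A and SNORD62B lie near each other in PRRC2B and had matching values, with scores of 5 and 6 in HSPA1A replicate 1 and 5 for both in each HSPA8 list. Their HSPA8 peaks covered the same bases of each copy, 13 to 81 in replicate 1 and from 52 to just past the 3′ end in replicate 2, so reads may not have been told apart between the copies and they are uncertain as separate members. Counting lettered or numbered copies of a family once gave 47 families in place of 56 members, and then 2 families had a peak in all 4 lists, SNORD68 and SNORD58.

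SNORD14 RNAs guide methylation of 18S rRNA and also act in its processing. Of 5 annotated SNORD14 genes, 3 lie within HSPA8, the gene of one of the baits, and 2 of these, SNORD14C and SNORD14E, were members. SNORD14C, on chromosome 11 from 123059335 to 123059422, had scores of 9 in HSPA1A replicate 1 and 6 and 7 in the HSPA8 lists, with no peak in HSPA1A replicate 2. Its peaks covered 88, 85 and 69 of its 88 bases. SNORD14E, in another part of HSPA8, had 1 peak, with a score of 5 in HSPA8 replicate 2, from base 41 to the 3′ end. No other peak of any list lay within HSPA8 outside its snoRNAs.

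In HSPA8 replicate 2 the highest score on a member was 19, on SNORD44, an 18S rRNA guide in GAS5 that had no peak in the other lists. It was followed there by SNORD68 with 18. SNORD36C, a 28S rRNA guide in RPL7A, had 17, and SNORD25 in SNHG1 and SNORD42B in RPL23A had 15 each. The highest values in the other lists were 13 for SNORD76 in HSPA1A replicate 1, 12 for SNORD58B in HSPA1A replicate 2 and 11 for SNORD81 in HSPA8 replicate 1. These values are not comparable between lists, since the scores of all peaks also differed.

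Peaks on members were low-scoring in every list. The median score of peaks on members was 6, 6, 6 and 7, where the median over all peaks of the list was 10, 13, 10 and 22. Of the peaks on members, 27 of 33, 12 of 12, 10 of 11 and 34 of 34 lay below the median of their own list, in the order of HSPA1A replicates 1 and 2 and HSPA8 replicates 1 and 2. Restricted to peaks at or above the list's median score, 7 members remained, with 6 in HSPA1A replicate 1 and 1 in HSPA8 replicate 1. No score minimum entered the choice of members.

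**Figure D2:**
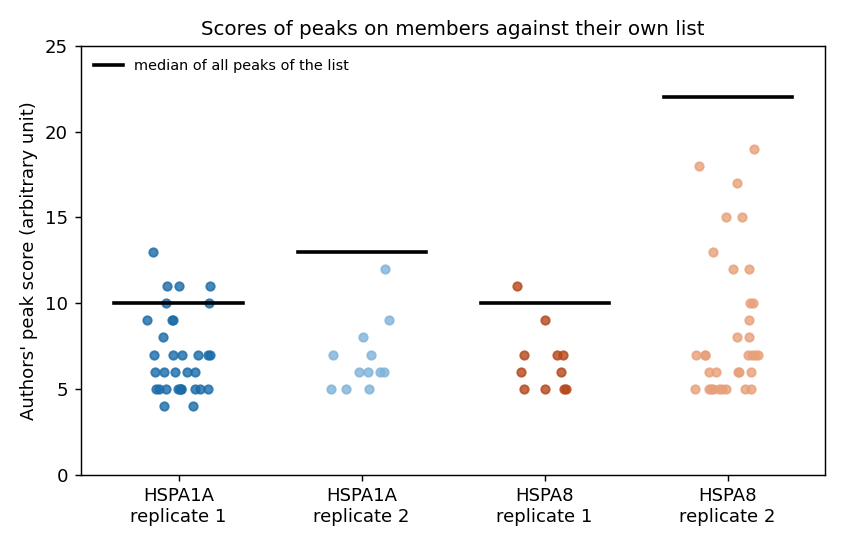
Authors' score (arbitrary unit) of every peak on a member, with 1 point per peak and 1 column per list, against the median score of all peaks of that list (black bar). In HSPA1A replicate 2 and HSPA8 replicate 2 every point lies under the bar, at 13 and 22, and 6 points of HSPA1A replicate 1 and 1 of HSPA8 replicate 1 lie on or above the bar at 10.

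Where the peaks lay within the gene was not part of the rule, which asked for an overlap of 1 bp without regard to strand. The 90 peaks, 1 per member and list, followed the bounds of the annotated snoRNA. No peak began more than 3 bases before the 5′ end or ended more than 2 bases past the 3′ end, and 62 of 90 lay wholly inside. The smallest overlap was 21 bases, on SNORD18A in HSPA1A replicate 1. With the peak's midpoint inside the gene, or with at least 50% of the peak or the gene overlapped, the members were the same in number in every list. Among genes of the set without a peak, the nearest to a peak was SNORD79 in GAS5, 41 bp away, and 3 of 276 lay within 100 bp.

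The strand of the host was given by the reference for 49 of the 56 members, which carried 79 peaks. All 79 lay on the strand of the host (30 and 11 with HSPA1A, 10 and 28 with HSPA8). The reference table gives no strand for the snoRNA genes themselves, and the position along a gene was read from the strand of the peak. Median peak width on members was 48 and 45.5 bp with HSPA1A and 69 and 43.5 bp with HSPA8, where all peaks had medians of 48, 44, 57 and 51 bp.

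Of the 90 peaks, 56 had their midpoint past the middle of the RNA, 33 before it and 1 at it. The median midpoint was at 55.7% and 62.5% of the length from the 5′ end for both HSPA1A replicates and at 54.1% and 61.7% for HSPA8. It was past the middle in 4 of 4 lists, by a mean of 8.48 ± 4.22 percentage points (SD, n = 4; two-sided exact sign-flip permutation over lists, p = 0.125, the least it can give). This comparison with the middle was chosen after the positions were seen, and with equal numbers of top-scoring peaks it was 5.90 (exact permutation, p = 0.5). In all, 63 peaks reached the last 10 bases of the RNA and 30 the first 10, among them 15 that reached both. On average, peaks covered 24.5%, 11.9%, 41.6% and 27.2% of the first 10% of the gene, and 43.7%, 70.4%, 57.7% and 59.7% of the last 10%. In each list the 3′ end was thus covered more than the 5′ end.

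Between baits, the median midpoint averaged 59.1% ± 4.79 (SD, n = 2) of the length with HSPA1A and 57.9% ± 5.37 (SD, n = 2) with HSPA8. The difference was 1.23 percentage points (two-sided exact permutation test, p = 0.667). It was smaller than the spread between replicates, and it turned to -2.15 without HSPA1A replicate 2 and to -2.57 without HSPA8 replicate 1. The median share of a member's length under its peak was 62.3% and 64.0% with HSPA1A and 81.8% and 64.7% with HSPA8. HSPA8 replicate 1 stood apart here, with the widest peaks also over its whole list, and the part of peak width in this value was not tested. The bait means were 63.2% ± 1.23 (SD, n = 2) and 73.3% ± 12.1 (SD, n = 2), which differ by -10.1 percentage points (two-sided exact permutation test, p = 0.333, the least it can give). Without HSPA8 replicate 1 it was -1.54 and without HSPA8 replicate 2 it was -18.7.

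**Figure D3:**
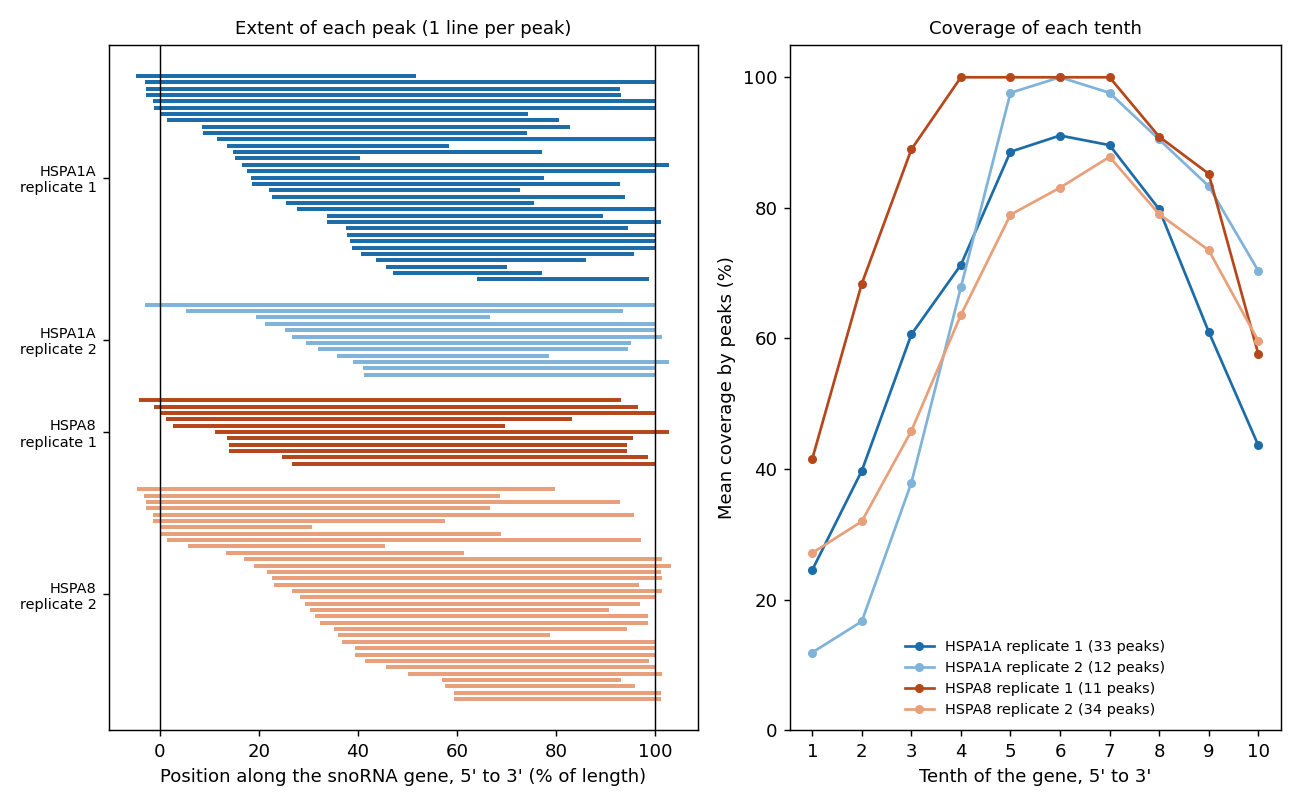
Left, extent of each of the 90 peaks along its snoRNA gene (percent of the gene's length from 5′ to 3′, vertical lines at the gene's ends), with 1 line per peak, grouped by list. Right, mean coverage (percent) by those peaks in 10 equal steps along the gene; intervals inside a gene cover its middle most often by construction, and the ends differ, with the last step above the first in each list.

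The peaks of different lists on one member mostly overlapped. Peaks covered a median of 66.9% of a member's length, so such overlap arises in large part by construction and does not show a shared site. For the 23 members with a peak in more than 1 list there were 46 pairs of peaks. In 45 of them the peaks shared at least 50% of the shorter, and in 32 the shorter lay wholly inside the longer. The 3′ edges differed by a median of 1 base and the 5′ edges by 12.5 bases. The exception was SNORD50A in SNHG5, a 28S rRNA guide, with a peak over bases 49 to 74 in HSPA1A replicate 1 and over bases 11 to 46 in HSPA8 replicate 2, which shared no base. Pairs within a bait numbered 13 and all shared at least 76.3% of the shorter peak, and 32 of the 33 pairs across baits shared at least 50%.

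The host genes were then examined. Each of the 56 lay wholly inside a protein-coding or lncRNA gene, and there were 31 hosts on 15 chromosomes. Lying in a host is general in the set, since only 10 of the 332 annotated genes had no containing gene. In 13 hosts, 2 or more snoRNAs were members, and these hosts held 38 of the 56. By kind of host, 21 members lay in 10 ribosomal protein genes, 17 in 7 lncRNA genes and 18 in 14 other protein-coding genes.

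Of 41 annotated genes of the set in ribosomal protein genes, 21 (51.2%) were members, against 16.9% of the whole set and 4.90% of all genes with a peak in any list. Without imprinted clusters that had no peak, the share of the set was 26.9%. The hosts included RPL13A, RPL17 and RPL7A with 3 members each, RPL23A, RPL4 and RPS12 with 2 each, and RPL13 and RPL3 with 1 each. RPL13A contributed SNORD32A, SNORD34 and SNORD35A of its 4. RPL17 contributed SNORD58A, SNORD58B and SNORD58C, which are all of its annotated genes. By list, members in these genes numbered 12, 8, 5 and 13. Ribosomal protein hosts held 8 of the 12 members of HSPA1A replicate 2.

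Of 167 genes in lncRNA hosts, 17 (10.2%) were members, where 4.90% of all genes had a peak in any list. Most of the others belong to imprinted clusters that had no peak, and outside these the share was 17 of 44 (38.6%). GAS5, a non-coding RNA whose introns carry a series of snoRNAs, held 7 members of 10 listed: SNORD44, SNORD47, SNORD74, SNORD76, SNORD78, SNORD80 and SNORD81. Within GAS5, 4 and 1 had a peak with HSPA1A, and 1 and 4 with HSPA8. SNHG1 held 4 members of 8, SNORD22, SNORD25, SNORD26 and SNORD30, seen in HSPA1A replicate 1 and HSPA8 replicate 2 alone, with 3 and 2 each. SNHG32 held SNORD48 and SNORD52, and SNHG5, SNHG16, SNHG29 and ZFAS1 held 1 each. Members in lncRNA hosts numbered 10, 1, 1 and 10 by list, so nearly all of them came from the lists with more members.

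Of 114 genes in other protein-coding hosts, 18 (15.8%) were members, where 4.90% of all genes had a peak in any list. That share was close to the 16.9% of the whole set, but below the 26.9% of the set without the imprinted clusters. NOP56, the gene of a core protein of the box C/D particle itself, held SNORD56, SNORD57 and SNORD110. SNORD110 was the single member with peaks in both lists numbered 1 and no other, with scores of 7 and 9, and its peaks covered all 75 bases. SNORD56 shared with SNORD24 and SNORD58B a peak in both lists numbered 2 and no other. The other hosts included HSPA8, PRRC2B, DDX39B, EEF2, EIF4A2, HSPA9, NCL, RABGGTB, RACK1, RBMX, SNRPB and TAF1D, several of which serve translation or RNA processing (EEF2 and EIF4A2 in translation, NCL encoding nucleolin, SNRPB a spliceosomal protein). These host shares describe the peaks that chose the members and carry no test.

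Some of the gene lists examined held no member. None of the 41 genes of the imprinted 14q32 cluster (SNORD112, SNORD113 and SNORD114 copies) and none of the 83 of the 15q11 clusters (SNORD115 and SNORD116 copies and their neighbours) had a peak in any list. Nor did the 5 listed snoRNAs that guide modification of U6 snRNA, SNORD7, SNORD8, SNORD9, SNORD67 and SNORD94. With 5 genes, and 16.9% of the whole set carrying a peak, that absence says little. Many of the imprinted genes are numbered copies, whose sequences were not compared here, and the handling of reads that match several places is not stated. Whether this bears on the absence of peaks was not tested. Over the whole set, 56 of 332 genes (16.9%) were members, where 4.90% of all genes had a peak in any list. Without the imprinted genes, a choice made after seeing that they had no peak, the share was 56 of 208 (26.9%). Members had a median length of 72 bases, from 61 to 126, and genes of the set without a peak 81 bases, from 33 to 237.

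Few peaks lay on the hosts outside their snoRNAs. Among the 31 hosts, such a peak was present on 3 in the list of HSPA1A replicate 1 and on 4 in that of HSPA8 replicate 1, which makes 8 peaks on 7 hosts. Both lists numbered 2 had 0. In HSPA1A replicate 1 these lay in GAS5, RPL17 and PRRC2B, with scores of 5 to 6. In HSPA8 replicate 1 they included 2 in RPL4 and 1 each in RPL13 and EEF2, with scores of 5 to 6. Over all 38353 protein-coding and lncRNA genes, 2.60%, 1.64%, 2.91% and 0.887% had a peak in the same lists, and for the hosts the shares were 9.68%, 0%, 12.9% and 0%. Bait means were 1.5 ± 2.12 and 2 ± 2.83 hosts (SD, n = 2), and the difference of -0.5 was smaller than the spread between replicates (two-sided exact permutation test, p = 1). Without HSPA8 replicate 1 it turned to 1.5 and without HSPA1A replicate 2 to 1. The table holds no exons, so it was not determined whether those 8 peaks lay in exons or introns.

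The set was set beside the other small nucleolar RNAs. Box H/ACA snoRNAs guide conversion of uridine to pseudouridine, and 22 and 3 of 182 annotated SNORA genes carried one with HSPA1A, against 2 and 14 with HSPA8. Their shares were 12.1% (95% Wilson interval 8.12 to 17.6), 1.65% (0.562 to 4.73), 1.10% (0.302 to 3.92) and 7.69% (4.64 to 12.5). The lists with many and few box C/D members were thus also those with many and few SNORA genes. The box C/D share minus the H/ACA share averaged 1.15 ± 2.21 percentage points (SD, n = 4) and was above 0 in 3 of 4 lists (two-sided exact sign-flip permutation over lists, p = 0.375). Without the imprinted genes, a choice made after seeing the data, it was 5.19 (exact permutation, p = 0.125, the least it can give). Those genes had no peak in any list, so leaving them out of the box C/D class alone can only raise the difference. This value and its p therefore do not show that the classes differ. With 1 list left out the main difference was lowest without HSPA8 replicate 2, at 0.677, and highest without HSPA1A replicate 1, at 2.24.

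U3, U8 and U13 stood apart from both classes: 8, 7, 8 and 8 of these 25 genes had a peak, and 7 in all 4 lists, so they did not follow the change in number between lists. Copies of U3 are among these genes, and the handling of reads that match several places is not stated. Whether these counts stand for separate RNAs was not tested. The median midpoint over the 46 H/ACA peaks of all lists was at 49.0% of the length, against 58.6% over the 90 peaks on members. The H/ACA medians by list were 45.2% and 79.7% with HSPA1A (25 and 3 peaks), and 67.2% and 45.0% with HSPA8 (2 and 16 peaks). In HSPA1A replicate 2 and HSPA8 replicate 1 the H/ACA median thus lay nearer the 3′ end than that of members. Of the H/ACA peaks, 2 reached over 3 bases outside the gene, by up to 16 bases. The position of the classes was not tested against each other.

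**Figure D4:**
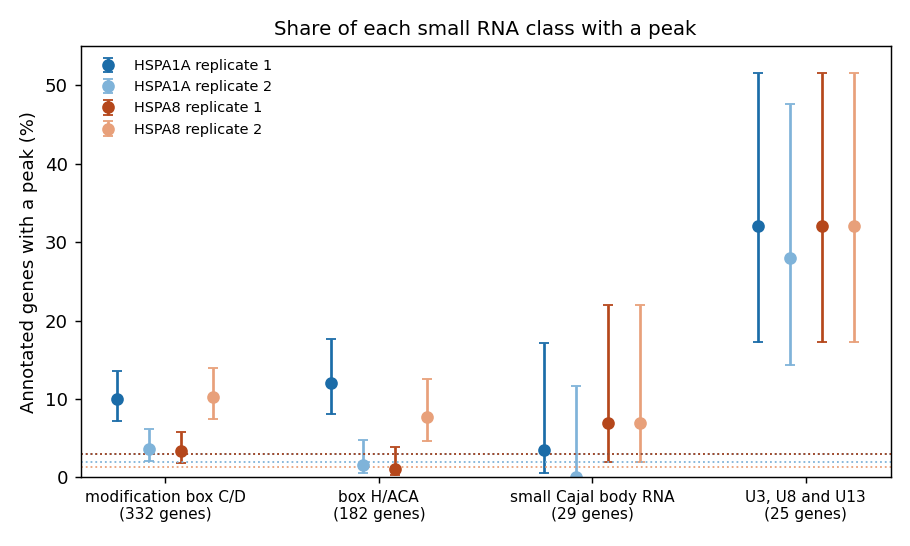
Percent of annotated genes with a peak, by small RNA class and list; points are shares, bars are 95% Wilson intervals (counting error alone), and dotted lines mark the share of all genes in each list, from 1.28% to 3.05%. Box C/D and box H/ACA genes are both highest in HSPA1A replicate 1 and HSPA8 replicate 2, and U3, U8 and U13 genes stay at 7 or 8 of 25.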

How the data were processed

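FLASH-seq peaks of HSPA1A and HSPA8, 2 replicates each, were analysed. Per the labels' protocols, random tags in the adapters merged PCR duplicates. Per the submitters' processing notes, reads were handled with Trim Galore 0.4.4, FastQC, STAR 2.6.0b and deepTools on GRCh38. How peaks were called, at which threshold, and how reads matching several places were handled are not given in the sources used here. The deposited score is a whole number per peak of unstated meaning.

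Peaks were assigned without strand to genes of the RefSeq table for GRCh38.p14 (59716 genes on 25 chromosomes). The host was the shortest protein-coding or lncRNA gene containing the snoRNA, readthrough genes left out; host strand came from the RefSeq promoter table, which lists none of the 56 snoRNA genes themselves. Baits were compared by exact permutation over 4 lists, and classes by exact sign flips. Wilson intervals cover counting error alone. Procedures were tested on simulated peaks. Members, lists and tests were chosen with earlier results of these data known. Members named by rule were those in all 4 lists, SNORD14 genes, those of a single bait in both replicates, and members of set lists (GAS5, SNHG1, RPL13A, SNORD14, 14q32, 15q11, U6 guides) in 3 or more. Tools were scipy 1.17.1, matplotlib 3.10.9, pandas 2.3.3 and numpy 2.4.6, under Python 3.11.15. Results for a few host genes are not reported here.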

Additional observations from a re-analysis of the deposited data

How the results depend on the processing

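Of 92 values under other settings, 67 kept their direction or stayed within 1.5 times the main count, 9 reversed and 16 moved; the cause was not tested. No test between baits can pass a threshold with 2 lists each, so a kept call says nothing about stability. With peaks at or above the list's median score, the counts of members in both HSPA1A replicates, both HSPA8 replicates and all 4 lists fell from 9, 4 and 1 to 0, 0 and 0; fewer peaks remain by construction, and positions had no value because 2 lists held no member. The same setting gave a bait difference (HSPA1A minus HSPA8) of 2.5 genes, 0.182 percentage points of peaks and 0 hosts. It gave a box C/D minus H/ACA difference of -0.709, which was between 0.339 and 5.19 under every other setting. The 5.19 is the value without the imprinted genes, a setting that can only raise it. Equal numbers of top-scoring peaks gave -3 genes, 0.5 hosts and 1 member in both HSPA8 replicates. The strand of the gene gave 1.5 genes and 0 hosts. This setting kept only genes with a given strand, 241 of 332, and 49 of the 56 members. No member was lost for a peak on the other strand, so these values differ from the main ones through the genes left out. SNORD3* read as a prefix gave 0.5 genes, the lettered U13 relatives kept gave -0.5, and these readings were chosen after seeing the data; families counted once gave 2 in all 4 lists. Leaving out a replicate gave from -11.5 to 11.5 genes, from -0.774 to 0.541 percentage points of peaks, from -2.5 to 1.5 hosts, and from -2.57 to 5.03 percentage points for the midpoint. Replicates share a number only, since no label names a shared day. With the replicate block the differences were 0 genes, -0.116 percentage points of peaks and -0.5 hosts. They were 1.23 for the midpoint and -10.1 for the length covered (exact sign-flip permutation, smallest p 0.5). Deviations of same-numbered lists correlated at 0.245 over the 56 members. The peaks behind this value also chose the members, which are not replicates, so it cannot show whether same-numbered lists were paired. Unknown read depth limits every count.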
